A study of Arabidopsis thaliana with 16 samples.

Results

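Ethylene slows the elongation of Arabidopsis roots, and the comparison described here asked where that hormone changed gene expression differently in roots of the aux1 mutant and of the wild type. The quantity measured was a difference of differences: the effect of ethylene against air in aux1, minus the effect of ethylene against air in the wild type Col-0 (Col). It was read from 8 arrays, 2 in each of 4 groups, of the 16 arrays of the series. Every probe set other than the controls of the array was included when its log2 value was above 4 in at least 2 of the 16 arrays, which kept 14244 of 22746 probe sets and left out 8502. Among those kept, 7714 were assigned to 1 locus, 308 to several genes, 28 to a name without a locus code, and 6194 were not listed in the annotation used.

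The 4 groups were roots of Col-0 and of aux1-7, an allele that makes roots resistant to auxin, each exposed for 4 h to hydrocarbon-free air or to 10 ppm ethylene. All seedlings had grown for 3 days in the dark at 22 °C, and the roots were cut from the hypocotyls before RNA was taken, so each array averages over all root cell types. The other 8 arrays held roots of Col and of the ethylene-insensitive mutant ein2-5, given 1 µM of the auxin indole-3-acetic acid (IAA) or a mock solution. They supplied IAA effects from arrays that do not enter the difference. Per the series, replicates were biological, with 2 in each group. In such bulk roots, fewer cells of a type and less RNA per cell cannot be told apart.

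As background, ethylene is perceived by receptors of the endoplasmic reticulum. In its presence EIN2 is released from inhibition and the transcription factors EIN3 and EIL1 accumulate. AUX1 encodes a carrier that takes auxin into cells and is needed to move auxin through the root tip. Ethylene raises auxin synthesis and transport in root tips, and aux1 roots are known for growing on in ethylene concentrations that stop wild-type roots. Both hormones act on cell walls, through expansins, which loosen the wall, and through enzymes that make, cut or rejoin its polysaccharides.

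Array medians lay between 5.874 and 6.004 on the log2 scale, and replicate arrays correlated at 0.9930 to 0.9977. The Col air arrays stood furthest apart: 416 probe sets (2.92%) differed at least 2-fold between them, against 99 to 248 (0.695% to 1.74%) in the other groups. The mutated gene itself is not analysed here, as no probe set was named AUX1. Of the root cell type markers, the root hair expansins EXPA7 and EXPA18 lay between 7.86 and 10.53 in the 8 arrays. The cortex marker AT1G62500 lay between 2.89 and 2.95, while markers of the shoot, stele, root cap and meristem had no named probe set. The root hair markers EXPA7, EXPA18 and XTH26 had differences of -0.42, -0.22 and -2.77, and none was called. The part of cell type makeup in the results was not tested. The number of arrays limits the precision.

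Ethylene changed many genes in each genotype, and its effect was called as different between them for few. In Col, 1246 probe sets (8.75%) were called for ethylene, 567 higher (3.98%) and 679 lower (4.77%). In aux1, 1008 (7.08%) were called, 467 higher (3.28%) and 541 lower (3.8%). Both comparisons called 334 probe sets higher and 334 lower, and 2 in opposite directions. The difference between the effects was called for 21 probe sets, which is 0.147% of those tested. The ethylene effect was higher in aux1 than in Col for 6 of them (0.0421%) and lower for 15 (0.105%), but this balance turned to 4 higher and 2 lower when the floor was raised from 4 to 6. Of the 21, 12 carried 1 locus code and 9 were unlisted. A call here is a limma adjusted p under 0.05 over all 14244 probe sets, and 800 probe sets had an unadjusted p under 0.05, where 0.05 of those tested is 712.2.

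**Figure D1:**
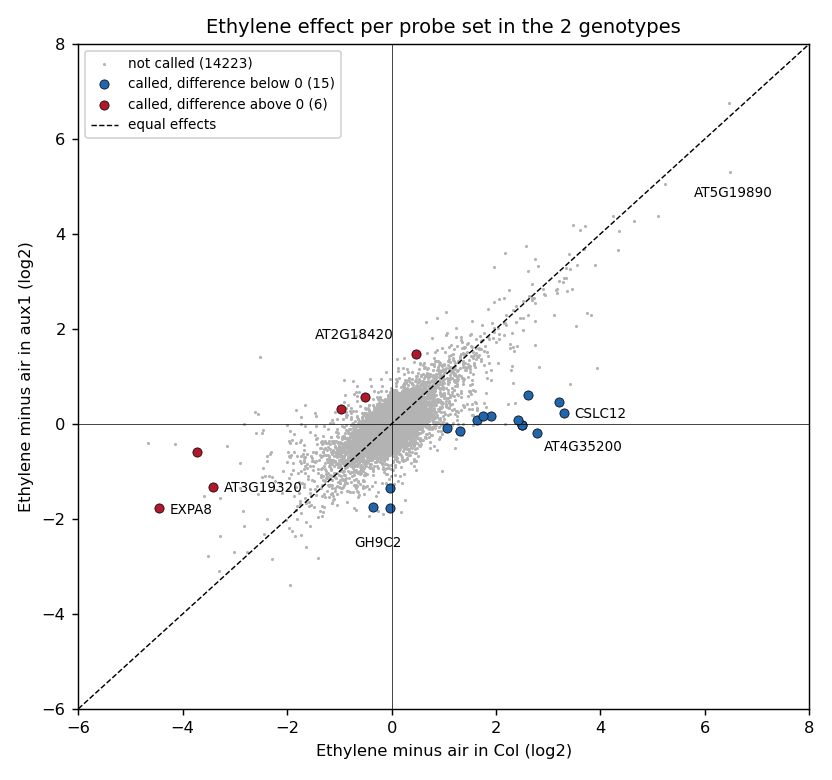
Each point is 1 of the 14244 probe sets, with its ethylene effect in Col on the x axis and in aux1 on the y axis, both as log2 ethylene minus air. The 15 blue points, below the dashed line of equal effects, and the 6 red points above it are the probe sets called for the difference, and most of the blue ones lie near 0 in aux1 with a rise in Col.

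The fit was precise enough to bound the difference for most genes. Its median SE was 0.219, and the 95% interval typically reached 0.481 to either side (median). For 11512 probe sets (80.8%) the interval lay wholly within a 2-fold difference in either direction. The pooled SD between replicates was 0.187 to 0.214 in the auxin groups and 0.218 to 0.307 in the groups of the ethylene experiment. The shared estimate may thus make these intervals too narrow. The floor could also be passed in auxin arrays alone, so probe sets that were low throughout the ethylene experiment may be among those bounded. A measured difference of at least 2-fold was found for 227 probe sets (1.59%), 115 higher and 112 lower. The median difference over all probe sets was -0.024.

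A rise with ethylene in Col for which no change was called in aux1 was seen in 12 of the 21 probe sets. Of these 12, 9 exceeded the floor of 4 only in the Col ethylene arrays and so entered the test through the group in which they were high, so the 12 are no measure of how common the pattern was. The other 3 exceeded it in other arrays too. All 12 were also called between the genotypes in ethylene, and none in air. The ethylene calls largely follow from picking the 12 by the difference, which uses the same arrays, and are no separate support. Their ethylene effects ran from 1.05 to 3.29 in Col and from -0.19 to 0.61 in aux1. The 7 with a locus code were CSLC12, AT4G35200, AT4G35210, AT2G39690, AT5G44820, AT5G60630 and AT4G01110. Those that passed the floor only in Col ethylene were, among loci, CSLC12, AT2G39690, AT5G44820, AT5G60630 and AT4G01110. With no floor all of these 5, and AT2G18420 described further on, were still called (adjusted p from 0.000934 to 0.0421).

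CSLC12 (AT4G07960) encodes a synthase of the glucan backbone of xyloglucan, the main hemicellulose of the wall in these plants. Its log2 values were 2.33 and 2.41 in Col air, 6.13 and 5.19 in Col ethylene, 2.38 and 2.38 in aux1 air, and 2.85 and 2.37 in aux1 ethylene. Both Col ethylene arrays stood above every other array, and in aux1 the air and ethylene arrays overlapped. The difference was -3.06 ± 0.33 (moderated SE, n = 2 arrays per group, adjusted p = 0.00334), with ethylene effects of 3.29 ± 0.24 (Col) and 0.23 ± 0.24 (aux1). The SD between replicates of CSLC12 was 0.67 in Col ethylene and 0.34 in aux1 ethylene, but 0.003 to 0.04 in the auxin groups that enter the same SE. Group means under 2.55, the highest lower quartile of an array, were taken as near background, and the Col air and aux1 air means of CSLC12 lay there, so the size of its rise is limited by the background. IAA left CSLC12 at 0.04 ± 0.24 in Col (adjusted p = 0.963).

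AT4G35200 and AT4G35210 are next to each other on the chromosome in the RefSeq annotation, with 0 protein-coding genes between them. AT4G35200 measured 3.73 and 3.43 in Col air, 6.77 and 5.96 in Col ethylene, 3.304 and 3.44 in aux1 air, and 3.42 and 2.95 in aux1 ethylene. AT4G35210 measured 2.77 and 3.05, 5.57 and 5.24, 2.93 and 2.98, and 2.88 and 2.99 in the same order. For both loci the Col ethylene arrays stood far above the other 6, and the air and ethylene arrays of aux1 overlapped. The other 6 arrays of AT4G35210 overlapped between all groups. For AT4G35200 both Col air arrays lay above both aux1 ethylene arrays. The differences were -2.97 ± 0.35 for AT4G35200 (adjusted p = 0.00565) and -2.51 ± 0.24 for AT4G35210 (adjusted p = 0.00161). Both loci also rose with IAA. The IAA effect on AT4G35200 was 2.38 ± 0.25 in Col and 1.35 ± 0.25 in ein2, and on AT4G35210 it was 2.15 ± 0.17 in Col and 1.00 ± 0.17 in ein2, and all 4 were called. Over all probe sets, IAA raised 4.09% in Col and 1.9% in ein2.

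AT2G39690 measured 2.74 and 2.20 in Col air, 4.98 and 4.80 in Col ethylene, 2.15 and 2.22 in aux1 air, and 2.41 and 2.14 in aux1 ethylene. The 2 Col ethylene arrays were again the only high ones, and the other 3 group means were near background. The difference was -2.33 ± 0.22 (adjusted p = 0.00161). Its SD between replicates was 0.38 in Col air but 0.0006 to 0.027 in the auxin groups that enter the same SE. AT5G44820 (-1.76 ± 0.22, adjusted p = 0.00675), AT5G60630 (-1.56 ± 0.22, 0.0146) and AT4G01110 (-1.13 ± 0.14, 0.00675) likewise had the Col ethylene arrays as their highest, from levels of 2.62 to 3.32 in Col air. For AT5G44820 the SD was 0.26 in aux1 air and 0.33 in aux1 ethylene, but 0.012 to 0.051 in the auxin groups. In the ethylene experiment alone, AT2G39690, AT5G44820, AT5G60630 and AT4G01110 had limma adjusted p of 0.12, 0.26, 0.153 and 0.212. None of these 4 loci was called for IAA in Col, where their effects ran from 0.01 to 0.23. Over the whole pattern, 3 of the 12 probe sets were raised by IAA in Col and 9 were not called. Beside them stand 4.09% of all probe sets, and 69 of the 567 probe sets called higher with ethylene in Col.

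**Figure D2:**
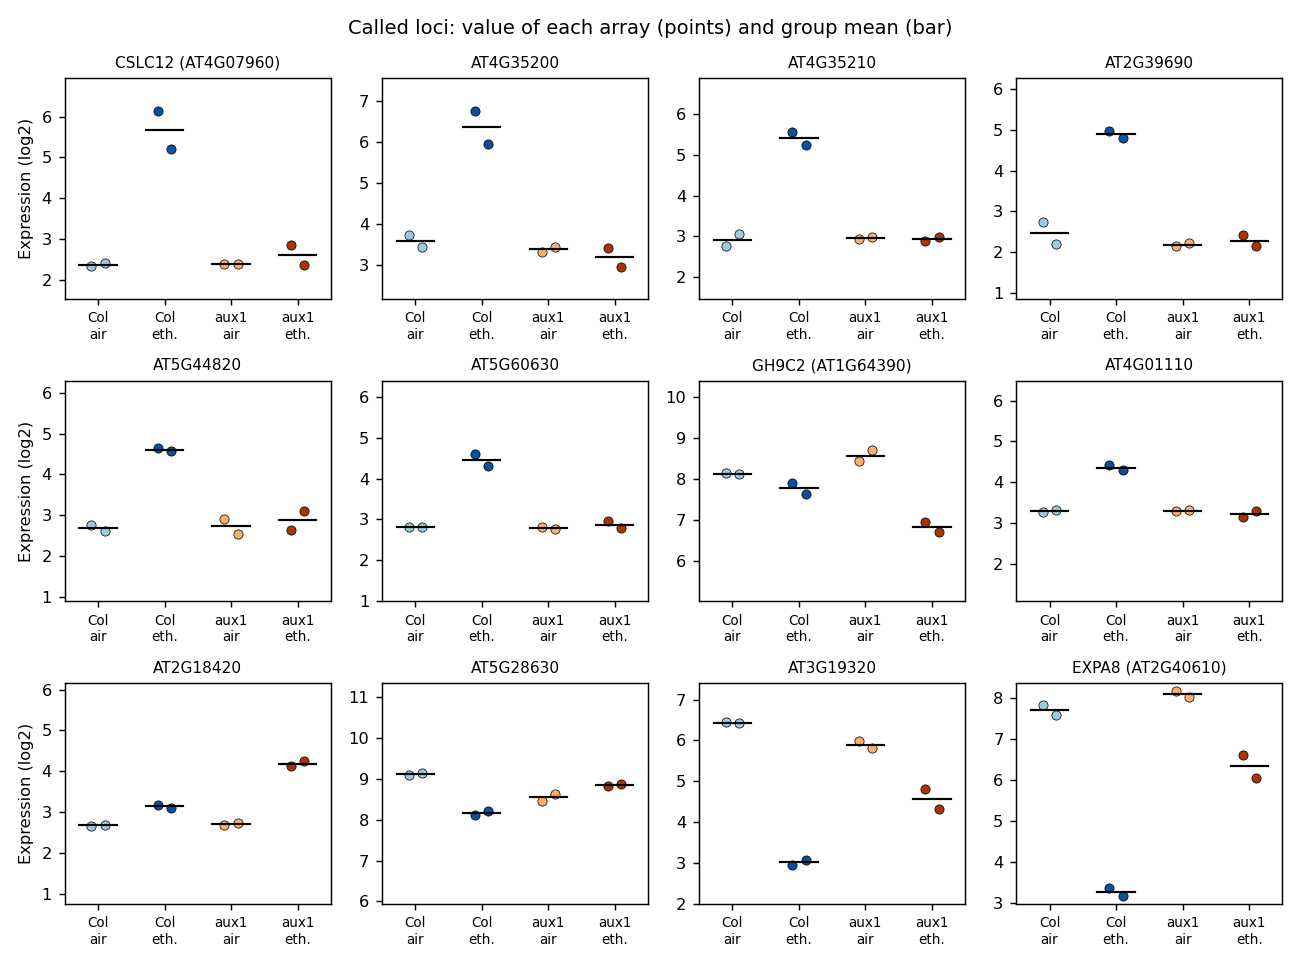
Log2 expression of the 12 called loci in the 8 arrays of the ethylene experiment, with each array as a point, the group mean as a bar, and y axes that all span 5.4 log2 units. In 7 panels, from CSLC12 to AT4G01110 without GH9C2, only the 2 Col ethylene arrays are high, while EXPA8 and AT3G19320 fall in both genotypes and further in Col.

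The 6 probe sets with a higher effect in aux1 were mostly genes that ethylene lowered in Col. EXPA8 (AT2G40610), an expansin, measured 7.83 and 7.59 in Col air, 3.36 and 3.15 in Col ethylene, 8.19 and 8.04 in aux1 air, and 6.61 and 6.06 in aux1 ethylene. Ethylene arrays lay below air arrays in both genotypes, and the aux1 ethylene arrays lay between the Col groups. The fall of EXPA8 was 21.9-fold in Col (-4.45 ± 0.18) and 3.43-fold in aux1 (-1.78 ± 0.18), which differed by 2.67 ± 0.26 (adjusted p = 0.00162). IAA lowered EXPA8 in Col (-0.80 ± 0.18, adjusted p = 0.0241). In ein2 its IAA effect was 0.05 ± 0.18 (adjusted p = 0.963).

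AT3G19320 measured 6.44 and 6.43 in Col air, 2.96 and 3.08 in Col ethylene, 5.98 and 5.81 in aux1 air, and 4.82 and 4.31 in aux1 ethylene. It fell in both genotypes without overlap, and less in aux1, with a difference of 2.09 ± 0.24 (adjusted p = 0.0055). IAA lowered AT3G19320 by 1.62 ± 0.17 in Col and by 1.15 ± 0.17 in ein2.

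AT5G28630 was lowered by ethylene in Col alone, with values of 9.09 and 9.16 in Col air, 8.13 and 8.20 in Col ethylene, 8.46 and 8.64 in aux1 air, and 8.84 and 8.88 in aux1 ethylene. In aux1 both ethylene arrays lay above both air arrays, an effect of 0.31 ± 0.13 that was not called (adjusted p = 0.205), against -0.96 ± 0.13 in Col. The difference was 1.27 ± 0.18 (adjusted p = 0.0146). The unlisted probe set 255591_at (3.14 ± 0.46, adjusted p = 0.0181) fell by 3.73 in Col and stood at -0.59 in aux1, and 253515_at (1.09 ± 0.18, 0.0419) moved from a fall of 0.52 in Col to a rise of 0.57 in aux1, a call that was lost with the replicate block (adjusted p = 0.0545).

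All 5 of these probe sets were also lowered by IAA in Col, where 2.75% of all tested probe sets were, and 2 of them in ein2, beside 1.3%. The 5 had all been called lower with ethylene in Col. Of the 679 probe sets so called, 153 were lowered by IAA in Col, a higher share than over all probe sets. The IAA effects of the 5 in Col ran from -1.92 to -0.59. The sixth, AT2G18420, differed in kind. It measured 2.66 and 2.68 in Col air, 3.18 and 3.104 in Col ethylene, 2.68 and 2.72 in aux1 air, and 4.12 and 4.24 in aux1 ethylene. Only the aux1 ethylene arrays exceeded the floor of 4, so AT2G18420 entered the test through the group in which it was high. It rose in both genotypes without overlap and further in aux1, by 1.48 ± 0.09 against 0.47 ± 0.09 (difference 1.01 ± 0.13, adjusted p = 0.00675). IAA left it at 0.04 ± 0.09 in Col.

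Of the 15 probe sets with a lower effect in aux1, 3 were not called for ethylene in Col and fell in aux1. GH9C2 (AT1G64390), a member of the family of endoglucanases that cut glucan chains of the wall, was the only one with a locus code. It measured 8.15 and 8.11 in Col air, 7.89 and 7.64 in Col ethylene, 8.43 and 8.71 in aux1 air, and 6.93 and 6.69 in aux1 ethylene. Its aux1 ethylene arrays were the lowest of the 8, and its difference was -1.40 ± 0.18 (adjusted p = 0.00803), from -0.36 ± 0.13 in Col and -1.76 ± 0.13 in aux1. IAA raised GH9C2 by 1.17 ± 0.13 in Col and by 0.53 ± 0.13 in ein2. The other 2 were unlisted and already higher in aux1 than in Col in air, by 2.33 and 1.44. With ethylene they came to within 0.595 and 0.125 of Col, and their Col means in air were near background. They were the only 2 of the 21 called between the genotypes in air, beside 105 probe sets (0.737%) in all. In ethylene 19 of the 21 were called between the genotypes, beside 275 (1.93%). The difference is the genotype contrast in ethylene minus that in air, on the same arrays. Probe sets picked by it with little contrast in air must differ in ethylene, so the 19 are no separate support.

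**Figure D3:**
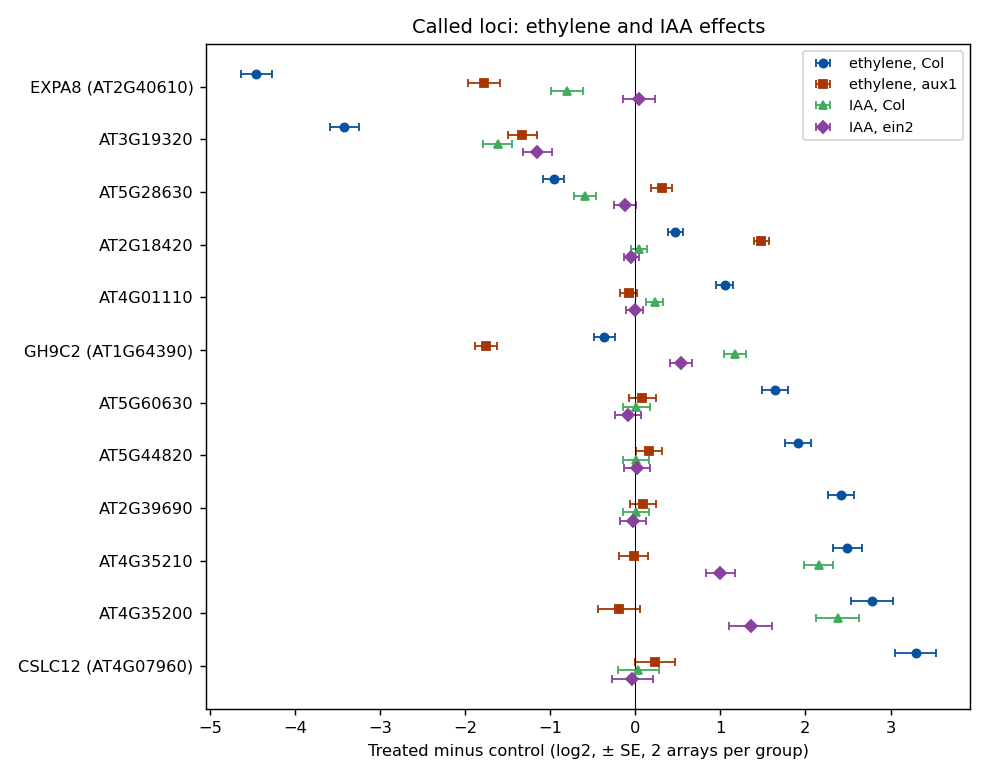
Ethylene effects in Col and aux1 and IAA effects in Col and ein2 for the 12 called loci, as log2 treated minus control with bars of 1 SE (n = 2 arrays per group). The 2 loci AT4G35200 and AT4G35210 rose with ethylene in Col and with IAA in both genotypes, whereas CSLC12 rose with ethylene in Col and stayed within 0.04 of 0 with IAA.

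The count of 21 depended on the arrays and on the fit. It was 85 without Col air replicate 2 (68 higher) and 34 without Col air replicate 1 (28 lower), 35 with a replicate block, 6 with the floor raised from 4 to 6, and 3 when the auxin arrays were left out of the fit, where AT4G35210 was the 1 of the 12 loci that kept its call. AT5G60630 and AT5G28630 each lost their call when any of 4 single arrays was left out, 255591_at with any of 5, and 253515_at with any of 14. For both loci these included replicate 1 of Col ethylene and of aux1 air and replicate 2 of aux1 ethylene. The fourth was aux1 air replicate 2 for AT5G60630 and Col ethylene replicate 2 for AT5G28630. None of the 12 called loci changed sign with an array left out. These fits kept the probe sets that had passed the floor with all 16 arrays. CSLC12, AT2G39690, AT5G44820, AT4G01110 and AT5G60630 (Col ethylene) and AT2G18420 (aux1 ethylene) exceeded the floor in 2 arrays only. Without either of those arrays they would not have been tested, so these fits say nothing about their calls there. Leaving out an auxin array changes the spread and not the difference.

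The 10 loci that came next by p were not called. AT3G55720 measured 5.58 and 4.42 in Col air, 8.61 and 8.23 in Col ethylene, 4.88 and 5.08 in aux1 air, and 6.12 and 5.50 in aux1 ethylene. Its Col ethylene arrays were far above the others, with a difference of -2.59 ± 0.45 (adjusted p = 0.0699), and IAA raised it by 2.27 ± 0.32 in Col. It was called after median centring (adjusted p = 0.0437), after quantile normalization (0.0487) and without Col air replicate 1 (0.00507) or 2 (0.0284). AT3G57700 (-1.38 ± 0.24, adjusted p = 0.0583), above the floor in the Col ethylene arrays alone, AT2G24170 (-0.98 ± 0.18, 0.0749) and AT2G46910 (-0.79 ± 0.16, 0.125) also had differences below 0.

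Of these 10, 4 had differences above 0, were called lower with ethylene in Col and were called lower with IAA in Col. Over all tested probe sets, 4.77% were called lower with ethylene in Col and 2.75% with IAA. Of the 679 called lower with ethylene in Col, 153 were also called lower with IAA. ACT11 (AT3G12110), an actin, measured 8.62 and 8.57 in Col air, 6.88 and 6.85 in Col ethylene, 8.53 and 8.75 in aux1 air, and 8.02 and 7.89 in aux1 ethylene. Its ethylene arrays lay below its air arrays in both genotypes, with a difference of 1.05 ± 0.21 (adjusted p = 0.137). The others were AT3G59370 (1.56 ± 0.28, adjusted p = 0.0714), AT4G25250 (1.60 ± 0.30, 0.103) and AT1G62510 (1.27 ± 0.25, 0.116). With the replicate block all 4 were called (adjusted p from 0.0148 to 0.0427), as was AT3G55720 (0.0266).

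AT1G64405 and AT1G63530 were among the same 10 and started from a higher level in aux1. AT1G64405 measured 3.89 and 3.96 in Col air, 3.34 and 3.16 in Col ethylene, 6.27 and 5.80 in aux1 air, and 4.27 and 4.19 in aux1 ethylene. The aux1 air arrays were the highest of the 8, 2.11 ± 0.16 above Col air (adjusted p = 7.83e-05), and the difference of the ethylene effects was -1.13 ± 0.23 (adjusted p = 0.137). IAA raised AT1G64405 by 5.71 ± 0.16 in Col. AT1G63530 stood 1.10 ± 0.11 higher in aux1 air than in Col air, with a difference of -0.87 ± 0.15 (adjusted p = 0.0714).

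The largest ethylene responses shared by the genotypes were then set beside the called genes, as the 8 largest rises and 8 largest falls among loci called in both. AT2G39980 rose by 4.25 ± 0.21 in Col and by 4.37 ± 0.21 in aux1, from 7.92 to 8.43 in the 4 air arrays to 12.31 to 12.51 in the 4 ethylene arrays. Its difference was 0.12, with an interval of -0.55 to 0.79, so a 2-fold difference in either direction lay outside it. For AT2G22880 the difference was -0.06 and the interval -0.88 to 0.77, also within 2-fold. These 2 were the only ones of the 16 whose interval lay wholly within 2-fold.

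The other rises were bounded less well. AT5G19890, with the largest rise in both genotypes (6.49 ± 0.55 and 5.30 ± 0.55), had an interval of -2.91 to 0.53 for its difference, so neither equal effects nor a 2-fold smaller effect in aux1 lay outside it. ARL (AT2G44080), a promoter of cell expansion related to ARGOS, rose by 3.901 ± 0.35 and 3.34 ± 0.35 (interval -1.65 to 0.53). The differences of AT5G40590, AT1G76470, AT4G38410 and AT3G11210 lay between -0.62 and 0.48, with no call. The -0.62 was that of AT3G11210, whose air means were near background in both genotypes, which limits the size of its rises and of the difference. RTE1 (AT2G26070), which promotes signalling by the ETR1 receptor that holds the pathway off, was no member of the 16. It measured 6.85 to 7.17 in the 4 air arrays and 9.68 to 9.89 in the 4 ethylene arrays, with no overlap in either genotype, and its difference was -0.18 ± 0.25 (interval -0.73 to 0.37).

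Among the 8 shared falls, EXPA8 and AT3G19320 were called for the difference, as above. EXPB1 (AT2G20750), another expansin, had effects of -3.29 ± 0.15 (Col) and -2.36 ± 0.15 (aux1), and the difference of 0.93 ± 0.22 was not called (adjusted p = 0.268, interval 0.46 to 1.40). AT1G03820 had effects of -3.402 ± 0.29 in aux1 and -1.95 ± 0.29 in Col, which differed by -1.46 ± 0.41 (adjusted p = 0.416, interval -2.35 to -0.56). It was higher in aux1 than in Col in air by 1.49 ± 0.29 (adjusted p = 0.0415), and the genotypes lay within 0.03 of each other in ethylene. The remaining falls, of AT5G62420, AT5G04120, AT5G01740 and AT3G32030, had differences from 0.12 to 0.75 and no call. The 0.75 was that of AT5G04120, whose ethylene means were near background in both genotypes, which limits the size of its falls and of the difference.

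**Figure D4:**
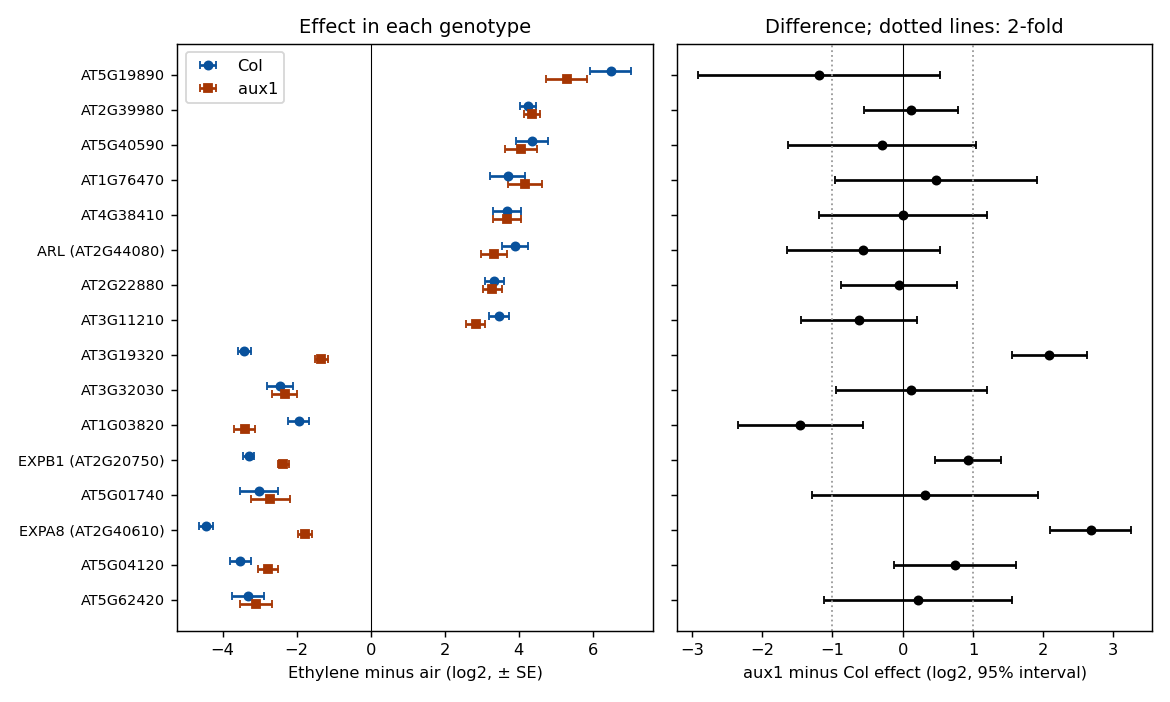
The 16 loci with the largest ethylene rises and falls called in both genotypes, with effects ± SE on the left (n = 2 arrays per group) and the aux1 minus Col difference with its 95% interval on the right, all in log2. EXPA8 and AT3G19320 are called for the difference, and the intervals of AT2G39980 and AT2G22880 alone stay between the dotted lines at 2-fold.

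Families of the 2 hormone pathways and of the wall were read from lists, of which only the members with a named probe set could be tested. Over all tested probe sets 0.147% were called for the difference, so 0 calls in a short list say little about its family. Of 3 tested members of ethylene signalling and synthesis (RTE1, ARL and EIN3), 2 rose in each genotype, beside 3.98% of all probe sets in Col and 3.28% in aux1, and 0 were called for the difference by limma or had an unadjusted p under 0.05. EIN3 (AT3G20770) stood at -0.06 in Col and 0.08 in aux1, with a difference of 0.14 ± 0.20 (interval -0.30 to 0.57). Auxin transport genes, SAUR genes and AP2/ERF factors had no tested member. The GH3 enzymes inactivate auxin by joining it to amino acids, and of 4 tested GH3 genes 0 were called for the difference by limma or had an unadjusted p under 0.05.

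GH3.3 (AT2G23170) shows how 1 array set its value. It measured 9.44 and 6.04 in Col air, 5.99 and 6.02 in Col ethylene, 8.83 and 8.11 in aux1 air, and 8.76 and 8.47 in aux1 ethylene. The 2 Col air arrays lay on either side of the aux1 arrays. The difference was 1.88 ± 1.07 (adjusted p = 0.914), and it was 3.58 without Col air replicate 2 (adjusted p = 0.0034) and 0.177 without Col air replicate 1. GH3.1 (AT2G14960, 0.88 ± 0.55) and AR781 (AT2G26530, 2.06 ± 0.77) had Col air arrays of 4.16 and 2.53 and of 8.41 and 6.17, and were called without Col air replicate 2 as well (adjusted p = 0.0381 and 0.0103). The other 3 group means of GH3.1 in the ethylene experiment were near background, which limits the size of its difference.

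The same array spread met the largest differences that missed the threshold. Of 20 differences of at least 4-fold that were not called, 16 higher and 4 lower, 14 had Col air replicates at least 2-fold apart, beside 2.92% of all tested probe sets. The counts were 4 for Col ethylene, 1 for aux1 air and 3 for aux1 ethylene. A difference this large misses the threshold only with a wide spread. Replicates far apart thus follow from how the 20 were picked and are no separate result.

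Of 11 tested expansins, ethylene lowered 4 in Col and 5 in aux1, beside 4.77% and 3.8% of all tested probe sets, and raised none. EXPA8 was the only one called for the difference, beside 0.147% of all. EXPA15 (AT2G03090) fell by 1.31 ± 0.21 and 1.85 ± 0.21, a difference of -0.54 ± 0.29 (adjusted p = 0.912). EXPA4 (AT2G39700) fell by 1.63 ± 0.35 and 2.07 ± 0.35, a difference of -0.44 ± 0.49. Leaving out EXPA8 and EXPB1, the differences of the other 9 expansins ran from -0.54 to 0.35. The median over all 11 was -0.252, beside -0.024 over all probe sets.

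Xyloglucan endotransglucosylases/hydrolases (XTH), which cut and rejoin xyloglucan, had 8 tested members and 0 limma calls for the difference, with 3 at an unadjusted p under 0.05 (XTH26, XTH16 and XTH21). XTH26 (AT4G28850), an enzyme of root hairs, measured 2.19 and 1.95 in Col air, 6.81 and 5.21 in Col ethylene, 1.93 and 1.92 in aux1 air, and 3.93 and 2.25 in aux1 ethylene. Its Col ethylene arrays alone exceeded the floor, its air means were near background and its 2 aux1 ethylene arrays far apart, with a difference of -2.77 ± 0.70 (adjusted p = 0.34) that was called without aux1 ethylene replicate 1 (-3.62, adjusted p = 0.0488). XTH16 (AT3G23730) had effects of -1.21 ± 0.21 (called) and -0.11 ± 0.21 (not called), which differed by 1.10 ± 0.30 (adjusted p = 0.394). XTH21 (AT2G18800) fell by 1.66 ± 0.23 and 0.89 ± 0.23 (difference 0.77 ± 0.33, adjusted p = 0.842). The median over the 8 was 0.172.

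Among 4 tested genes of xyloglucan synthesis, CSLC12 was the only one called for the difference, beside 0.147% of all tested probe sets. It passed the floor only in the Col ethylene arrays, so this count is no result about the family. Of 6 tested GH9 cellulases, GH9C2 was the only one called, and lower, beside the same share. The lists of GH9 cellulases and of actins and tubulins were added after the annotation had been seen, and their counts support nothing. GH9B13 (AT4G02290), with a fall in both genotypes (-2.15 ± 0.16 and -1.24 ± 0.16), had a difference of 0.90 ± 0.22 (adjusted p = 0.308). Of 8 tested actins and tubulins 0 were called for the difference by limma and 1, ACT11, had an unadjusted p under 0.05, and the other 7 lay between -0.20 and 0.41. RR16 (AT2G40670), a response regulator of cytokinin signalling, measured 3.07 and 3.27 in Col air, 5.57 and 4.39 in Col ethylene, 2.80 and 3.03 in aux1 air, and 3.46 and 3.07 in aux1 ethylene. Its Col ethylene arrays were the highest and the only ones above the floor, and its difference was -1.46 ± 0.40 (adjusted p = 0.396). Without Col ethylene replicate 2, the lower of the 2 high arrays, it was -2.05. RR16 would not have passed the floor with that array left out, so this value is no support.

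Last, the ethylene effects were read over probe sets picked by their IAA response in Col, on arrays outside the difference that share with it the estimate of spread per probe set. IAA lowered 391 probe sets in Col. Ethylene lowered 153 of these (39.1%) in Col and 74 (18.9%) in aux1, beside 4.77% and 3.8% of all tested probe sets. Their median ethylene effect was -0.401 in Col and -0.170 in aux1, and the median difference was 0.230. The difference was above 0 for 80.3% of the 391, beside 45.7% of all tested.

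By array, and relative to the mean of the 8 arrays, the median of these 391 was 0.165 and 0.210 in Col air, -0.200 and -0.241 in Col ethylene, 0.070 and 0.135 in aux1 air, and -0.050 and -0.057 in aux1 ethylene. The 4 groups did not overlap, and the aux1 groups lay between the Col groups. Over the 105 lowered at least 2-fold by IAA, the median effects were -0.873 in Col and -0.378 in aux1, with a median difference of 0.497.

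For the 582 probe sets raised by IAA in Col, the median ethylene effect was 0.103 in Col and -0.054 in aux1, with a median difference of -0.147. Ethylene raised 69 of them (11.9%) and lowered 37 (6.36%) in Col, and raised 32 (5.5%) and lowered 35 (6.01%) in aux1. Over all tested probe sets these shares were 3.98% and 4.77% in Col and 3.28% and 3.8% in aux1. The difference was above 0 for 28.2% of the 582, beside 45.7% of all tested. By array the median was -0.044 and -0.081 in Col air, 0.095 and -0.009 in Col ethylene, 0.038 and 0.036 in aux1 air, and 0.017 and -0.030 in aux1 ethylene. All 4 aux1 arrays lay above the Col air arrays, and they overlapped the Col ethylene arrays. These medians have no test, since probe sets are not replicates.

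**Figure D5:**
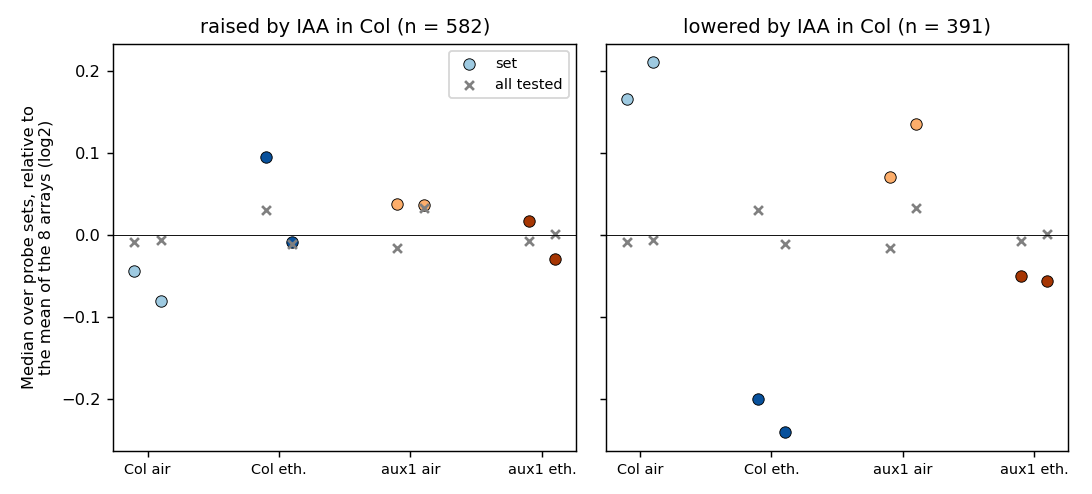
Median log2 value of the probe sets raised (left, n = 582) or lowered (right, n = 391) by IAA in Col, for each of the 8 arrays of the ethylene experiment, relative to the mean of those arrays, with grey crosses for all tested probe sets. On the right the 2 Col ethylene arrays lie at -0.200 and -0.241 and the 2 aux1 ethylene arrays at -0.050 and -0.057.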

How the data were processed

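RNA from roots was measured on 16 Affymetrix arrays of 22810 probe sets, 64 of them controls. The deposited values are GCRMA expression values on a log2 scale: GCRMA is named in the submitters' processing notes, and the range of the values shows the log2 scale. Its version and settings, and which arrays were normalized jointly, are not given in the sources used here. Values were used as deposited.

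All 16 arrays entered 1 linear model with a mean for each group (limma 3.58.1, R 4.3.3), so that the groups share 1 estimate of spread per probe set. That left 8 residual degrees of freedom, to which eBayes added 3.36. Tests were two-sided, with Benjamini-Hochberg adjustment over 14244 probe sets and a threshold of 0.05. Errors are moderated SE with n = 2 arrays per group, and intervals are 95%. The script was tested on simulated data.

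Probe sets were assigned to genes by the platform annotation, and the locus codes and symbols of those genes come from RefSeq (TAIR10.1). A locus with no name there is given by its code alone. The build of the probe sets is not given in the sources used here, so no coordinates are printed, and the promoter search that had been planned was not made because no promoter sequences were used here.

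Named genes are all called loci, the next 10 by p, the 8 largest rises and falls called in both genotypes, at most 2 unlisted probe sets per direction, and members of the gene lists. The members and lists were chosen with earlier results of these data known. 4 lists, of GH9 cellulases, cellulose synthase-like genes, actins and tubulins, and class III peroxidases by locus, were added after the annotation had been seen, and support nothing. Lists are described by counts and medians, with no set test. Of 6 tested cellulose synthase-like genes, CSLC12 was the only one called, beside 0.147% of all tested probe sets. Of 41 tested peroxidases by locus 0 were called by limma and 6 had an unadjusted p under 0.05, with differences from -1.52 to 2.70, and of 5 in the list read from the annotation there were 0 and 0. Auxin synthesis, Aux/IAA, LBD and pectin-modifying genes had 1, 1, 2 and 2 tested members, with 0 called for the difference and 0 at an unadjusted p under 0.05, and touch and wound genes had 3, with 0 called and 1 (AR781) at an unadjusted p under 0.05.

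The labels number the replicates 1 and 2 in every group. The replicate 1 minus 2 differences of the 4 ethylene groups correlated at 0.31 to 0.42 in all 6 pairs of groups, so the numbers were taken to pair the arrays, as a reading of the data and not of the labels. A fit with the replicate number as a block within each experiment was therefore made as an alternative. The main counts, SE and adjusted p come from the fit without this pairing. Other alternatives were median centring, quantile normalization, no floor, a floor of 6, an intensity trend or robust eBayes, the ethylene experiment alone, other choices of probe sets, a 2-fold limit, and each array left out in turn. The fits with an array left out and of the ethylene experiment alone kept the same 14244 probe sets, with the floor not applied again.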

Additional observations from a re-analysis of the deposited data

Results flagged for a closer look

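All 16 named probe sets called for the difference are listed here because the test of the difference itself separated aux1 from Col. The log2 differences below 0 were those of CSLC12 (AT4G07960, -3.06), AT4G35200 (-2.97), AT4G35210 (-2.51), AT2G39690 (-2.33), AT5G44820 (-1.76), AT5G60630 (-1.56), GH9C2 (AT1G64390, -1.40) and AT4G01110 (-1.13), and of the unlisted 266765_at (-2.76) and 250632_at (-2.51). The differences above 0 were those of EXPA8 (AT2G40610, 2.67), AT3G19320 (2.09), AT5G28630 (1.27) and AT2G18420 (1.01), and of the unlisted 255591_at (3.14) and 253515_at (1.09). No group had enough arrays to look for a single array far from the others.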

How the results depend on the processing

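The 21 calls for the difference became 26 after median centring, 24 after quantile normalization, 24 with no floor, 15 with an intensity trend, 21 with robust eBayes, 20 with 1 probe set per locus, 22 without probe sets that match several transcripts by their suffix, and 21 with a 2-fold limit. The counts for ethylene in Col and in aux1 kept within 1.5 times under the same settings except the last, which left 526 in Col and 424 in aux1. A floor of 6 gave 6 calls (4 higher and 2 lower in aux1), all shared with the 21, from 12112 probe sets. The ethylene experiment alone gave 3 calls, 2 of them shared, against 695 in Col and 516 in aux1. Probe sets with 1 locus code gave 12, 613 and 492. With the replicate block the counts were 35 (19 shared), 1828 and 1516. With single arrays left out the counts ran from 16 to 85 for the difference, from 731 to 1295 in Col (731 without Col ethylene replicate 1) and from 530 to 1060 in aux1 (530 without replicate 2 of aux1 air, 619 without that of aux1 ethylene). The cause was not tested.

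Median centring and quantile normalization put the median difference of all probe sets at 0.041 and -0.004. The median difference over probe sets lowered by IAA was 0.497 at a 2-fold limit, 0.214 with IAA calls from the auxin experiment alone (chosen after seeing the data) and 0.225 to 0.268 with arrays left out. Over those raised by IAA it was -0.121, -0.164 and -0.218 to -0.104.

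None of the 12 called loci changed sign under these alternatives. In the ethylene experiment alone 11 lost their call (adjusted p from 0.0924 for EXPA8 to 0.281 for GH9C2), and with an intensity trend AT2G18420 (0.239), AT4G01110 (0.154) and AT5G60630 (0.0736) did. Of the loci not called, 11 changed sign with 1 array left out, with lowest and highest differences of -0.136 and 0.374 (AT2G39980), -0.996 and 0.417 (AT5G40590), -0.689 and 0.697 (AT4G38410), -1.16 and 0.033 (ARL), -0.384 and 0.272 (AT2G22880, 0.009 after median centring), -0.100 and 0.539 (AT5G62420), -0.479 and 1.10 (AT5G01740), -0.487 and 0.734 (AT3G32030), -0.049 and 0.323 (EIN3), -0.917 and 0.077 (EXPA7) and -0.939 and 0.053 (EXPA4). Means near background limit the size of the rises of CSLC12, AT2G39690, XTH26 and AT3G11210.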
